A study of Homo sapiens with 9 samples.

Results

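Rapamycin was compared with DMSO in K562 cells that carried a guide to the HBG1 promoter, in 3 libraries against 3, paired by replicate number. These 6 libraries, of 9 in the series, were picked out by their sample titles, and the comparison was chosen with earlier results of these data known. The response is described for genes outside the globin loci. K562 is a human erythroleukaemia line with a BCR-ABL fusion. All 9 libraries came from the line called K562-FIRE, which expresses dCas9, MS2-Fkbp(1x) and SS18-Frb, each from an EF1a promoter. The dCas9 protein binds at a guide RNA without cutting DNA, and rapamycin joins the Fkbp and Frb domains. The study asked whether the endogenous BAF complex, a chromatin remodeller of which SS18 is a subunit, could be brought to the HBG1 promoter to activate the gene. Cells received 10 nM rapamycin or DMSO for 24 h. The other 3 libraries carried a non-targeting guide, 2 with rapamycin and 1 with DMSO, and serve here only as a check of direction.

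Rapamycin binds the small immunophilin FKBP12, the product of FKBP1A, and the complex then inhibits mTORC1, the kinase complex of MTOR and RPTOR. mTORC1 couples amino acid and growth factor supply to ribosome production, translation, nucleotide and lipid synthesis, and restrains autophagy. Among its outputs are the translation of ATF4, the transcription factor of the amino acid response, and the activities of MYC, HIF1 and SREBP. In every library given rapamycin the drug could act both on mTORC1 and through the introduced Fkbp and Frb domains, and these actions cannot be told apart in this comparison. Cell composition cannot be read from bulk RNA either, since fewer cells of a type and less RNA per cell give the same change.

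Total counts ran from 19797409 to 31619671 per library. The first principal component held 47.1% of the variance and separated rapamycin from DMSO, and the second held 29.3% and set replicate 1 of both treatments apart from replicates 2 and 3. The 10 erythroid markers of K562, among them GATA1, TAL1, KLF1 and TFRC, had counts in all 6 libraries, with a summed level of 1952 to 2153 CPM (reads scaled to library size) with rapamycin and 1855 to 2027 with DMSO. The monocyte marker FCN1 and the epithelial marker KRT5 were at 0 in all 6 libraries. LYZ, of the monocyte list, had 17.8 to 29.6 CPM, and EPCAM, of the epithelial list, 39.4 to 48.9 CPM. The summed level of the 4 monocyte markers was 21.1 to 30.3 CPM with rapamycin and 18.8 to 20.9 with DMSO, that of the 4 epithelial markers 42.4 to 49.0 and 39.4 to 41.9, and that of the 4 T cell markers 6.12 to 6.81 and 5.16 to 5.80. The 4 B cell markers summed to 1.31 to 2.38 CPM with rapamycin and 2.69 to 3.07 with DMSO, and the 4 fibroblast markers to 5.30 to 27.0 and 5.63 to 19.1. On this scale the sums of the first 4 of these lists did not overlap between the treatments, as held for 27.6% of all genes tested with TMM scaling. With TMM scaling the 1 tested monocyte marker, LYZ, had 20.5 to 29.1 CPM with rapamycin and 17.8 to 20.7 with DMSO, which overlap. The 1 tested epithelial marker, EPCAM, had 41.7 to 50.3 and 39.2 to 41.7. The part of these markers in the results was not tested. Nothing in the labels says that the replicates were separate cultures, so the p-values measure the spread between these libraries, which may be technical.

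Rapamycin changed many genes by small amounts. Of 20179 genes tested, 3441 (17.1%) passed an adjusted p of 0.05 in edgeR's quasi-likelihood test with the replicate number as a block, 1500 (7.43%) higher and 1941 (9.62%) lower with rapamycin. Outside the globin loci 20166 genes were tested, of which 1491 were higher and 1938 lower. The median size of a called change was 0.36 on the log2 scale, which is 1.28-fold. More genes had large rises than large falls: 499 genes rose and 157 fell by at least 1.5-fold, 165 rose and 31 fell by at least 2-fold, and 50 rose and 8 fell by at least 3-fold. These counts include genes at low levels. Among called genes with a symbol, at least 2 log2 CPM and 3 of 3 pairs in 1 direction, the extremes were alike. The largest rise was 1.70 on the log2 scale (ACE) and the largest fall -1.56 (DDIT4). All 3 pairs moved in the same direction in 3400 of the 3429 called genes. In 2889 of them (84.3%) the 3 rapamycin and 3 DMSO libraries did not overlap in CPM, which held for 27.6% of all genes tested.

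These counts rest on the pairing. Without the replicate term 584 genes were higher and 787 lower, and all 1371 were also called with it. These 1371 of 20166 genes outside the globin loci are the background for list counts given below without that term. Leaving out replicate 3 left 719 higher and 1101 lower, while leaving out replicate 1 left 1237 and 1479 and leaving out replicate 2 left 1319 and 1867. Every gene called in the paired fit kept its sign in each of 11 alternative analyses in which it was tested. Unless a sentence says otherwise, each gene named below as risen or fallen kept its call in all 11.

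**Figure D1:**
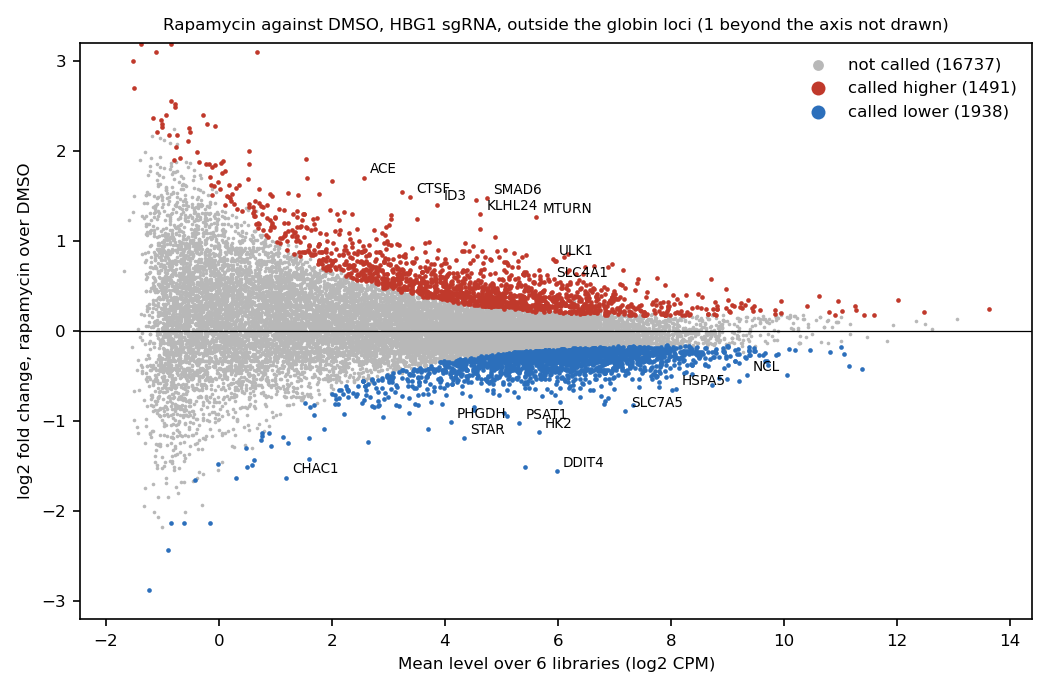
Each point is 1 gene outside the globin loci, with its mean level over the 6 libraries (log2 CPM) on the horizontal axis and its log2 fold change, rapamycin over DMSO, on the vertical axis. Red points (1491) were called higher and blue points (1938) lower at an adjusted p of 0.05, and 1 gene beyond the axis is not drawn.

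Of the genes of the drug's own pathway, MTOR had 194, 289 and 270 CPM with rapamycin in replicates 1, 2 and 3, and 190, 262 and 268 CPM with DMSO. Its log2 fold change was 0.06 ± 0.06 (SE, 3 pairs; adjusted p = 0.52). RICTOR, the scaffold of mTORC2, rose by 0.34 on the log2 scale (adjusted p = 0.00147). RPTOR, the scaffold of mTORC1, was at -0.30 (adjusted p = 0.00506). That call was lost without the replicate term (adjusted p = 0.104) and without replicate 3 (adjusted p = 0.0551). Of 53 tested genes of the mTOR complexes and of nutrient sensing, 9 rose and 8 fell (4 and 2 without the replicate term, 5 and 3 without replicate 3), with a median log2 fold change of -0.03 beside 0.01 over all genes.

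The members of this list with the largest called changes were ULK1 and PDCD4. ULK1, the kinase that starts autophagy, stood at 73.8, 81.3 and 73.8 CPM with rapamycin and at 46.1, 41.5 and 44.2 CPM with DMSO, so the groups did not overlap. Its log2 fold change was 0.80 ± 0.07 (adjusted p = 1.03e-06). PDCD4, an inhibitor of the helicase eIF4A that S6 kinase marks for degradation, rose from 51.2, 42.5 and 44.1 CPM to 79.1, 75.4 and 82.6 CPM, a log2 fold change of 0.78 ± 0.07. CASTOR2, of the arginine sensor family, was at 0.56 (adjusted p = 0.0384), a call lost without the replicate term (0.104), in DESeq2 and without replicate 2 or 3. NPRL3, a subunit of the GATOR1 complex that restrains mTORC1, rose by 0.35. SESN2, a leucine sensor and ATF4 target, fell by 0.47, and FLCN, which activates the Rag GTPases, fell by 0.44. FNIP2, a partner of FLCN, was at -0.39 (adjusted p = 0.00854), a call lost without the replicate term and without replicate 3. EIF4EBP1, the translational repressor that mTORC1 phosphorylates, was at -0.30 (adjusted p = 0.0104), a call lost without the replicate term (adjusted p = 0.0744) and without replicate 3 (0.126).

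The drug's receptor and the recruited subunit share sequence with the introduced parts, and whether their counts hold reads of the fusions was not tested. FKBP1A had 227, 209 and 259 CPM with rapamycin and 242, 279 and 290 CPM with DMSO, which overlap. Its log2 fold change of -0.22 was called (adjusted p = 0.0213) but not without the replicate term (adjusted p = 0.191), without replicate 2 (0.166) or without replicate 3 (0.0676). SS18 had 211, 316 and 295 CPM with rapamycin and 186, 258 and 235 CPM with DMSO. Its change of 0.27 was called (adjusted p = 0.00296) but not without the replicate term (0.277) or without replicate 3 (0.0666). Of 29 BAF complex genes, 1 was called higher, which is SS18, and 4 lower, and none without the replicate term. The share of the BAF list called, 17.2%, was near the 17.1% of all genes tested. Of 17 FKBP family genes, 1 rose and 3 fell (23.5% called). FKBP4, a co-chaperone of HSP90, fell by 0.66 from 118, 128 and 116 CPM to 75.8, 76.6 and 75.9 CPM.

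The 15 largest rises among genes of at least 2 log2 CPM included SMAD6, ID2 and ID3. SMAD6, an inhibitory member of the SMAD proteins that carry the signal of bone morphogenetic proteins (BMPs), stood at 51.5, 32 and 35.1 CPM with rapamycin and at 15.9, 13.2 and 13.1 CPM with DMSO. Every rapamycin library was above every DMSO library, and the log2 fold change was 1.47 ± 0.10 (2.77-fold, adjusted p = 2.73e-08). ID2 and ID3 are dimerisation partners that block DNA binding by basic helix-loop-helix factors, and both are classic BMP targets. ID2 stood at 54.1, 20.3 and 29.7 CPM with rapamycin and at 17.8, 9.74 and 9.40 CPM with DMSO, a change of 1.45 ± 0.12 (adjusted p = 1.75e-07). Replicate 1 was the highest library of each treatment. ID3 rose by 1.40 ± 0.15 (2.65-fold), from 8.16, 8.38 and 6.94 CPM to 27.6, 15 and 21.1 CPM.

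Further genes of the BMP pathway were looked up after these values were seen, as no list for the pathway had been drawn up. The receptor gene ACVR1 rose by 0.48 (adjusted p = 0.000998). ID1 stood at 123, 82.7 and 112 CPM with rapamycin and at 77.3, 78.2 and 78.7 CPM with DMSO, a change of 0.42 that was called in edgeR (adjusted p = 0.00175) but not in DESeq2. SMAD7, a second inhibitory SMAD, was at 0.84 from 1.82 to 2.49 CPM with DMSO, and its call (adjusted p = 0.0286) was lost without the replicate term (0.0943), in DESeq2 and without any 1 of the 3 replicates. SMAD4, SMAD5, BMPR1A and BMPR2 were at -0.08, -0.10, 0.03 and -0.03, and none of them was called. SMAD9 was at 1.17 from under 1 CPM in every library and was not called (adjusted p = 0.231). BAMBI, a decoy receptor of the pathway, was at -0.43 and called lower (adjusted p = 0.0267), but not without the replicate term (adjusted p = 0.151).

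The other large rises joined genes of varied function. ACE, the angiotensin-converting enzyme, had the largest, from 2.11, 3.49 and 2.95 CPM to 9.35, 9.98 and 8.09 CPM (3.25-fold, log2 1.70 ± 0.20, adjusted p = 1.19e-05). KLHL24, an adaptor of a ubiquitin ligase, rose from 12.6, 15.1 and 15.1 CPM to 34.5, 33.3 and 37.6 CPM (log2 1.30 ± 0.10, adjusted p = 1.17e-07). MTURN, which takes part in neural and megakaryocytic differentiation, rose from 30.1, 29.9 and 26.5 CPM to 74.3, 64.0 and 69.8 CPM (log2 1.26 ± 0.08, adjusted p = 6.2e-09). In each of these 3 genes the lowest rapamycin library was over 2 times the highest DMSO library. CTSF, a lysosomal cysteine protease, rose by 1.48, TCP11L2 by 1.66, the YPEL family member YPEL3 by 1.24 and ITGB4, an integrin subunit, by 1.23. Of the other family members, looked up afterwards, YPEL5 rose by 0.89 and YPEL2 was called higher at 0.96 (adjusted p = 0.0118). YPEL4 at 0.74 and YPEL1 at -0.09 were not called. The remaining 5 large rises, MYO15B, LYRM9, SMIM14, the pseudogene ZDHHC8BP and the antisense transcript TRMT61A-DT, lay between 1.24 and 1.32.

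DDIT4 had the largest fall among these genes. It encodes REDD1, an inhibitor of mTORC1 that stress induces, at chr10:72273920-72276036 (GRCh38, plus strand). Its levels were 117, 78.3 and 85.7 CPM with DMSO and 43.7, 27.1 and 26.1 CPM with rapamycin, a log2 fold change of -1.56 ± 0.08 (adjusted p = 1.37e-10). DDIT4-AS1 lies within it on the minus strand (chr10:72274915-72275980) and was at -1.51, and without a stated strand setting its reads and those of DDIT4 cannot be told apart. Other large falls were HK2, the hexokinase that opens glycolysis (-1.12), PSAT1 and PHGDH of serine synthesis (-1.02 and -1.01), the amino acid transporters SLC7A5 and SLC7A11 (-0.89 and -0.88), and the zinc and iron transporter SLC39A14 (-0.95). STAR, which moves cholesterol into mitochondria, fell by 1.19, from 26.4, 29.3 and 27.1 CPM to 11.6, 12.4 and 12.4 CPM. TNFRSF8, which encodes CD30, fell by 1.09, the podocyte and neuronal gene DDN by 1.23 and the neurofilament gene NEFH by 0.91. SNORD27, SNORD14C and MIR4751 completed the 15 at -0.96, -0.92 and -0.91. They lie inside SNHG1 (-0.49), HSPA8 (-0.39) and ATF5 (-0.63) on the same strand, and in libraries from poly-T selected RNA their counts may be reads of those hosts.

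**Figure D2:**
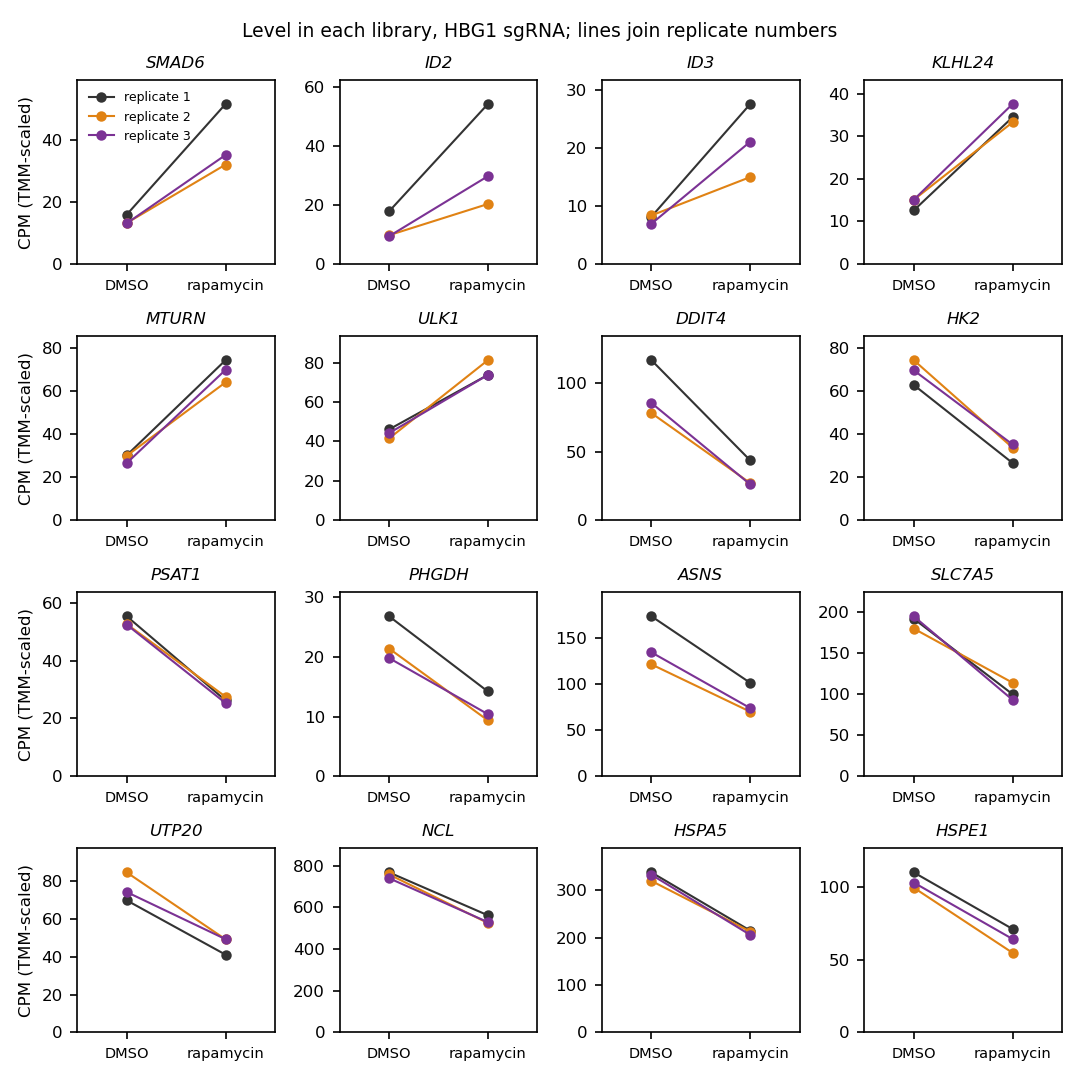
Levels of 16 genes in CPM scaled by TMM, from 0, for DMSO and rapamycin libraries, with a line joining the libraries of each replicate number. The first 6 panels show genes that rose, such as SMAD6 and MTURN, and the other 10 genes that fell, such as DDIT4 and HK2, and in each panel all 3 lines slope the same way.

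Ribosome biogenesis was the list with the most members called. Ribosomes are built in the nucleolus, where RNA polymerase I makes the large rRNA precursor and a large set of factors cuts, modifies and folds it. Of 86 tested genes for this process and for polymerases I and III, 72 fell and 1 rose, with a median log2 fold change of -0.38. Without the replicate term 57 fell and none rose. The summed level of the list was 8753 to 9341 CPM with rapamycin and 11234 to 11862 CPM with DMSO, so the ranges did not overlap. The falls were moderate and alike, with quartiles of the list at -0.46 and -0.27, and the largest was -0.71.

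UTP20, a scaffold of the small-subunit processome, went from 69.8, 84.6 and 74.2 CPM with DMSO to 41.1, 49.2 and 49.3 CPM with rapamycin (log2 -0.71 ± 0.07, adjusted p = 2.3e-06). LTV1, an export factor of the small subunit, fell by 0.66, and the helicase DDX10 by 0.59. Genes named here for their role after their values were seen included the rRNA methyltransferase NOP2 (-0.56) and NCL, the abundant nucleolar protein nucleolin. NCL went from 755 ± 13.9 CPM (SD, n = 3) to 539 ± 20.5 CPM (SD, n = 3), a change of -0.49 ± 0.05. RRN3, the initiation factor through which mTORC1 controls polymerase I, fell by 0.48, from 56.7, 61.8 and 61.9 CPM to 40.6, 46.7 and 41.8 CPM. The polymerase I subunits POLR1A and POLR1B fell by 0.41 and 0.42. NPM1, the other abundant nucleolar protein, was at -0.14 and not called (adjusted p = 0.112). The only member called higher was MAF1, the repressor of polymerase III that mTORC1 inactivates, at 0.27 (adjusted p = 0.00522). Its call was lost without the replicate term (adjusted p = 0.0541).

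The promoters of this list were searched for the E-box CACGTG, the core site of MYC and MAX, which reads the same on both strands. The window was 250 bases before to 50 after the start of each gene in RefSeq (GRCh38.p14). It was found in 24 of the 60 members called lower that had a promoter in the table (40.0%), in 2 of 13 not called (15.4%), in 1176 of 11668 promoters of tested genes (10.1%) and in 2030 of all 27305 promoters (7.4%). The lysosome and autophagy lists described below were searched too. In the lysosome list the E-box was found in 3 of 8 called higher (37.5%), 2 of 3 called lower and 8 of 33 not called (24.2%). In the autophagy list it was found in 0 of 13 called higher, 2 of 3 called lower and 2 of 24 not called (8.3%). A match describes these letters and does not show binding. The lists were chosen with earlier results of these data known, so the shares describe them and are no independent support. In 9 of the 24 ribosome biogenesis genes a match lay before the start site. The 4 of these with the largest falls are shown 5′ to 3′ on the gene's strand to let their surroundings be compared, with the E-box in capitals.
UTP20: gccgttcttttttccgtcCACGTGaccc
IMP4: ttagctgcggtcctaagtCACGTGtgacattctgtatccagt
UTP14A: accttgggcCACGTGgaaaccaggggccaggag
NAT10: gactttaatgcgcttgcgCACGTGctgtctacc
These lie at chr12:101280077-101280104, chr2:130342676-130342717, chrX:129905914-129905946 and chr11:34105596-34105628, all on the plus strand. The first letter of the E-box stands 10, 203, 241 and 15 bases before the start. IMP4 and UTP14A are components of the small-subunit processome, at -0.46 and -0.43, and NAT10 acetylates rRNA, at -0.40.

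Of 83 cytosolic ribosomal protein genes, 15 were called higher and 2 lower, with a median of 0.12. This was 20.5% called, beside 17.1% of all genes tested. None of the list was called without the replicate term. In the list 37 were higher without replicate 2 and 1 without replicate 3, and 32 were higher with no filter on low counts. RPL3 had the largest change, at 0.33 (adjusted p = 0.000326), from 1908, 1706 and 1637 CPM to 2439, 2145 and 2012 CPM. Its call was lost only without the replicate term (adjusted p = 0.0501). In the median of the list the pairs differed, with 0.18, -0.01 and 0.15 in replicates 1, 2 and 3. These genes have many processed pseudogenes, and how reads shared with them were counted is not stated. EEF2, the elongation factor that, like the ribosomal proteins, is made from an mRNA with a 5′ terminal oligopyrimidine tract, rose by 0.34, from 3576, 3654 and 3683 CPM to 4424, 4864 and 4532 CPM (adjusted p = 0.000232).

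Of 52 translation factors, 21 were called lower, 7 higher and 24 neither, with a median of -0.11 (11 and 1 without the replicate term, 13 and 1 without replicate 3). EIF2B1, a subunit of the exchange factor for eIF2, fell by 0.45, EIF1AX by 0.43 and the recycling factor ABCE1 by 0.37. Of 26 host genes of small nucleolar RNAs, 9 fell and none rose (4 without the replicate term). DANCR fell by 0.58, SNHG1 by 0.49 and SNHG12 by 0.48. The mitochondrial ribosome had 23 members called lower of 78 and none higher (29.5% called, beside 17.1% of all genes tested), with a median of -0.15. Without the replicate term 4 of 78 were lower, while 1371 of 20166 genes outside the globin loci were called, so the list did not stand out there. In DESeq2 14 were lower, and 11 to 16 without any 1 replicate. MRPS12 fell by 0.49.

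Among genes of the amino acid response, more were called lower than higher in each of 5 lists. ATF4 drives the synthesis and import of amino acids and the charging of tRNAs, and mTORC1 supports its translation. Of 22 tested stress and regulatory genes of the ATF4 pathway, 12 fell and 2 rose, with a median of -0.47 (8 and 1 without the replicate term). CHAC1, which degrades glutathione, had the largest fall, from 3.56, 3.00 and 3.10 CPM to 1.92, 0.764 and 0.685 CPM (log2 -1.63 ± 0.34, adjusted p = 0.00252). TRIB3, a pseudokinase that inhibits ATF4, fell by 0.79, and ATF5, a related factor, by 0.63. ATF4 itself had 231, 167 and 186 CPM with rapamycin and 272, 237 and 243 CPM with DMSO, which did not overlap. Its change of -0.38 (adjusted p = 0.000328) was not called without the replicate term (0.0604). PPP1R15A, which reverses eIF2 phosphorylation, went the other way by 0.38.

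Of 22 tested genes of serine synthesis and one-carbon metabolism, 11 were called lower and 2 higher (9 and 1 without the replicate term). PHGDH, the enzyme that draws 3-phosphoglycerate from glycolysis, went from 26.8, 21.4 and 19.8 CPM to 14.2, 9.36 and 10.4 CPM (log2 -1.01 ± 0.11). PSAT1, the next enzyme, went from 55.3, 52.6 and 52.4 CPM to 26.2, 27.5 and 25.3 CPM (log2 -1.02 ± 0.08, adjusted p = 1.28e-07). PSPH, the third, was at -0.04 and not called. The mitochondrial folate enzymes SHMT2 and MTHFD2 fell by 0.49 and 0.45. SHMT1, the cytosolic counterpart of SHMT2, was at -0.10 and not called.

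Among 17 genes that make asparagine, proline, glutamine, cysteine and related amino acids, 10 fell and none rose (7 without the replicate term). ASNS, asparagine synthetase, went from 173, 121 and 134 CPM to 101, 69.8 and 73.7 CPM (log2 -0.81 ± 0.06, adjusted p = 8.25e-08). BCAT1, the cytosolic branched-chain aminotransferase, fell by 0.65 and CBS of cysteine synthesis by 0.62. Of 25 amino acid transporters 10 were called lower and 5 higher (8 and 3 without the replicate term). SLC7A5, the large neutral amino acid carrier, went from 192, 180 and 195 CPM to 100, 114 and 93.1 CPM (log2 -0.89 ± 0.07, adjusted p = 1.4e-07). The cystine carrier SLC7A11 and the glutamine carrier SLC38A1 fell by 0.88 and 0.75, and the cationic carrier SLC7A1 by 0.60. The facilitative carriers SLC43A2 and SLC43A1 rose by 0.48 and 0.47.

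Of 24 cytosolic tRNA synthetases and their partners, 17 fell and none rose, with a median of -0.33 (13 without the replicate term). YARS1 went from 211, 195 and 203 CPM to 128, 112 and 106 CPM (log2 -0.82 ± 0.06, adjusted p = 9.2e-08), and WARS1 fell by 0.72, CARS1 by 0.56 and GARS1 by 0.54. The synthetases for leucine, lysine and glutamine were among those not called (LARS1 -0.03, KARS1 -0.16, QARS1 0.15). Of 17 mitochondrial synthetases 3 were called lower (1 without the replicate term), of which MARS2 fell by 0.69. Their share called, 17.6%, was near the 17.1% of all genes tested.

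The 5 lists on amino acids held 59 genes called lower, and their promoters were searched for TGATGNAA, the core of the C/EBP-ATF response element that ATF4 binds, on both strands. It was found in 15 of the 49 with a promoter in the table (30.6%), in 1 of 33 not called (3.0%), in 195 of 11668 promoters of tested genes (1.7%) and in 1003 of all 27305 (3.7%). The lists were drawn up with known ATF4 targets in mind, so the share describes them and is no independent support. In 8 of the 15 a match lay before the start site. The 4 of these with the largest falls are shown 5′ to 3′ on the gene's strand, with the element in capitals. They are printed to let their surroundings be compared.
CHAC1: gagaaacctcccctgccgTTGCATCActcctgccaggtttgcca
ASNS: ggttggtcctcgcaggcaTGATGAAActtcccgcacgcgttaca
BCAT1: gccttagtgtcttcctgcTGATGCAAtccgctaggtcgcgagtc
MTHFD1L: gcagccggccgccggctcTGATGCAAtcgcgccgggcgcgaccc
They lie at chr15:40953244-40953287 (plus strand), chr7:97872451-97872494 (minus), chr12:24949124-24949167 (minus) and chr6:150866339-150866382 (plus) in GRCh38.p14. The element begins 209, 68, 48 and 129 bases before the start and is inverted in CHAC1 alone of the 4. MTHFD1L, the mitochondrial formate-producing enzyme, was at -0.54.

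Glycolytic genes fell at several steps. Of 27 tested genes 13 were called lower and 2 higher (8 and none without the replicate term). HK2 went from 62.7, 74.2 and 69.5 CPM to 26.5, 33.6 and 35.1 CPM, with every pair between -1.24 and -0.98 (log2 -1.12 ± 0.08, adjusted p = 2.73e-08), while HK1 was at -0.09 and not called. PKM, pyruvate kinase, went from 271, 332 and 349 CPM to 161, 214 and 229 CPM (log2 -0.66 ± 0.06), and the glucose carrier SLC2A3 fell by 0.59 and LDHA, which makes lactate, by 0.52. SLC2A1, the main glucose carrier, was at 0.20 (adjusted p = 0.0183), a call lost without the replicate term (0.128) and without any 1 replicate. Of 8 genes of the MondoA glucose sensor, 4 rose and 1 was called lower. ARRDC4 went from 46.7, 55.9 and 47.3 CPM to 84.1, 102 and 79.4 CPM (log2 0.82 ± 0.07), and TXNIP, which limits glucose uptake, rose by 0.41, from 310, 302 and 299 CPM to 405, 403 and 403 CPM. Of 21 hypoxia genes 7 were called lower and 1 higher (2 and none without the replicate term), which is 38.1% called, beside 17.1% of all genes tested. VEGFA fell by 0.51.

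Of 15 purine genes 9 were called lower and 1 higher (3 and 1 without the replicate term). PPAT, the committed step, went from 80.9, 82.0 and 79.0 CPM to 56.7, 56.7 and 54.7 CPM (log2 -0.53 ± 0.07), and PFAS fell by 0.36. ADSS1, the isozyme of adenylosuccinate synthase that muscle uses, rose by 1.06 from 4.87 to 5.13 CPM with DMSO. Of 18 pyrimidine genes 7 were called lower and 1 higher (3 and none without the replicate term), among them UCK2 at -0.38 and NME1 at -0.34. Of 18 polyamine genes 8 were called lower and 2 higher (6 and 1 without the replicate term). ODC1, the rate-limiting enzyme, fell by 0.36, from 672, 670 and 639 CPM to 498, 529 and 519 CPM, and SRM, spermidine synthase, by 0.35.

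Of 31 sterol genes 12 were called lower and 2 higher, with a median of -0.12 (6 and 1 without the replicate term). SQLE and HMGCS1 fell by 0.40 and 0.41, and TM7SF2, a sterol reductase, rose by 0.61. Of 23 fatty acid genes 8 were called lower and 1 higher (5 and 1 without the replicate term). SCD, the desaturase, went from 310, 419 and 340 CPM to 239, 284 and 252 CPM (log2 -0.46 ± 0.06), and FASN fell by 0.38. The pentose phosphate genes split, with PGLS up by 0.54 and RPIA down by 0.48.

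Of 79 nuclear genes of the respiratory chain, 10 were called lower and 2 higher (2 and none without the replicate term), which is 15.2% called, near the 17.1% of all genes tested. CYCS, cytochrome c, fell by 0.34. Of the 15 mitochondrially encoded genes, 1 was called in each direction (13.3% called) and none without the replicate term. Among 29 genes of the citrate cycle and mitochondrial control, 10 were called lower and 2 higher (4 and 2 without the replicate term). PDK2, which inhibits pyruvate dehydrogenase, rose by 0.98, from 2.82, 3.35 and 4.09 CPM to 6.23, 6.11 and 7.79 CPM (adjusted p = 0.0018). IDH3A, of the citrate cycle, fell by 0.42, as did PPRC1, a coactivator related to PGC-1, by 0.43.

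Chaperone genes of the cytosol, the mitochondria and the endoplasmic reticulum were called lower. Of 23 heat shock genes 16 fell and none rose (13 without the replicate term), and their summed level was 9881 to 10478 CPM with rapamycin and 12530 to 13957 CPM with DMSO. HSPE1, the mitochondrial co-chaperonin, went from 110, 99.5 and 103 CPM to 71.1, 54.7 and 64.2 CPM (log2 -0.73 ± 0.07, adjusted p = 1.01e-06), and its partner HSPD1 fell by 0.54. In the cytosol HSPH1 fell by 0.66, HSP90AA1 by 0.49 and HSPA8 by 0.39. Of 33 genes of folding in the endoplasmic reticulum, 16 were called lower and 3 higher (7 and 2 without the replicate term). HSPA5, the chaperone BiP, went from 338, 320 and 333 CPM to 215, 213 and 206 CPM (log2 -0.65 ± 0.06, adjusted p = 4.97e-07), and XBP1 fell by 0.46. DERL3 rose by 0.83. Of 50 proteasome genes 16 were called lower and none higher (4 without the replicate term). PSME3, an activator, fell by 0.41 and PSMD11, a lid subunit, by 0.38.

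Of 47 autophagy genes tested, 15 were called higher, 3 lower and 29 neither, with a median of 0.10, and without the replicate term 11 were higher and none lower. The risen members named here act at several steps. Those called lower were PIK3R4, BNIP3 and ATG3, and each lost its call without the replicate term. In the initiating kinase complex, ULK1 rose by 0.80, ATG13 by 0.54 and its scaffold RB1CC1 by 0.46. WDR45, which binds the growing membrane, went from 52.8, 51.0 and 51.8 CPM to 94.7, 93.0 and 92.6 CPM, the tightest separation of these genes (log2 0.85 ± 0.07, adjusted p = 1.17e-07). Of the ATG8 family, GABARAPL1 rose by 0.63 and GABARAP by 0.41, while MAP1LC3B was at 0.17 and not called. The cargo receptor NBR1 rose by 0.72, from 72.4, 80.7 and 73.2 CPM to 128, 118 and 126 CPM, and the receptor SQSTM1 was at -0.14 and not called (adjusted p = 0.0928).

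Of 64 lysosomal genes tested, 9 were called higher and 6 lower, with a median of 0.03 (5 and 1 without the replicate term, 3 lower in DESeq2). The list had 23.4% called, beside 17.1% of all genes tested. CTSF, CTSH and CTSD, all cathepsins, rose by 1.48, 0.61 and 0.41, and CTSC fell by 0.37. TFEB, the master regulator of lysosomal genes, had 0.34 as the standard error of its log2 fold change of -0.42, at levels of 1.43 to 3.15 CPM, and was not called.

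In the list on the insulin receptor and FOXO, more genes were called higher than lower. mTORC1 and S6 kinase restrain insulin signalling by feedback, and FOXO factors act when that signal is low. Of 27 tested genes 8 were called higher and 2 lower, with a median of 0.19 (6 and 1 without the replicate term). FOXO4 went from 16.3, 16.9 and 16.6 CPM to 25.9, 26.3 and 24.4 CPM (log2 0.62 ± 0.10), and FOXO3 rose by 0.43. PINK1, a mitophagy kinase, rose by 0.79, and CCNG2, a cyclin that slows the cycle, by 0.91. INSR was at 0.74 (adjusted p = 0.0462), but its call was lost without the replicate term (0.114), in DESeq2 (0.0956), when thinned to equal depth (0.0574) and without any 1 replicate. Of the related receptors, IGF1R was called higher and IGF2R lower, and both calls were lost without the replicate term. GRB10, an adaptor that mTORC1 stabilises and that inhibits the insulin receptor, fell by 0.44, from 81.1, 75.8 and 86.1 CPM to 60.8, 62.8 and 55.4 CPM.

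Of 18 genes of ERK feedback, 3 were called higher and 1 lower (22.2% called, beside 17.1% of all genes tested). EGR1 rose by 0.58, from 111, 158 and 140 CPM to 176, 226 and 206 CPM, and FOSL1 fell by 0.55. Of 19 STAT5 targets 5 were called higher and 3 lower (3 and 1 without the replicate term, 3 higher in DESeq2). PIM1, a kinase gene, rose by 0.46, from 417, 407 and 450 CPM to 580, 572 and 597 CPM. Of 25 antioxidant genes of NRF2, 4 were called higher and 4 lower (2 and 1 without the replicate term). AKR1C1 rose by 0.71, although it and AKR1C2 are near-identical and may share reads, and GSR fell by 0.39.

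MYC, which drives ribosome genes, had 254, 268 and 254 CPM with rapamycin and 247, 219 and 211 CPM with DMSO. Its change of 0.20 was called (adjusted p = 0.0315), but not without the replicate term (0.159), without replicate 2 (0.123) or without replicate 3 (0.247). Its partner MAX fell by 0.32. MXD4, which competes with MYC for MAX, rose by 0.86, from 28.2, 23.5 and 27.9 CPM to 53.4, 43.4 and 47.4 CPM (adjusted p = 1.19e-06).

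Of 48 genes of DNA replication and S-phase entry, 19 were called lower and 1 higher, with a median of -0.11 (5 and none without the replicate term, 11 lower without replicate 1 and 12 without replicate 3). MCM10 went from 73.8, 75.7 and 75 CPM to 52.3, 55.2 and 54.5 CPM (log2 -0.47 ± 0.07), and SLBP, which matures histone mRNA, fell by 0.43 and DBF4 by 0.38. Mitotic genes had a median of 0.02, with 7 of 44 called higher and 2 lower, and none without the replicate term. Their share called was 20.5%, beside 17.1% of all genes tested. SKP2, which marks the inhibitor p27 for degradation, fell by 0.42. Of 42 clustered histone genes 7 were called higher and 2 lower (2 and none without the replicate term, 4 higher in DESeq2). For histones the share called was 21.4%. H2AC11 rose by 0.63. Histone mRNAs mostly lack a poly(A) tail, so selection with poly-T holds them back.

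Of 28 tested genes of the red cell membrane, 15 were called higher and 1 lower, with a median of 0.26. Without the replicate term 6 were higher and none lower, and without replicate 3 the count was 10. DMTN, which binds the actin skeleton, went from 32.4, 27.5 and 29.5 CPM to 57.5, 43.5 and 45.7 CPM (log2 0.71 ± 0.08, adjusted p = 9.41e-06). The blood group genes ICAM4 and RHCE rose by 0.65 and 0.62, though RHCE and RHD are near-identical and may share reads. SLC4A1, the anion exchanger band 3, went from 54.4, 39.8 and 46.2 CPM to 78.7, 61.4 and 65.1 CPM (log2 0.55 ± 0.07).

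In haem synthesis 7 of 20 genes were called higher and 1 lower (4 and none without the replicate term). ALAS2, the first and rate-limiting enzyme in red cells, went from 135, 93.4 and 99.5 CPM to 219, 154 and 153 CPM, with replicate 1 the highest of each treatment (log2 0.68 ± 0.06, adjusted p = 4.48e-07). PPOX rose by 0.65 and SLC25A37, mitoferrin, by 0.57. Of 19 erythroid transcription factors 4 were called higher and none lower (2 higher without the replicate term). Their share called was 21.1%, beside 17.1% of all genes tested. NFE2 rose by 0.40 and GATA1 by 0.31, from 214, 190 and 191 CPM to 275, 234 and 232 CPM, while KLF1 was at 0.06 and not called. TFRC, the transferrin receptor, fell by 0.27, from 824, 824 and 806 CPM to 681, 672 and 677 CPM. NCOA4, which delivers ferritin to autophagy, rose by 0.40. Of 9 tested megakaryocyte genes 5 were called higher (1 without the replicate term), and TUBB1 rose by 0.58.

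**Figure D3:**
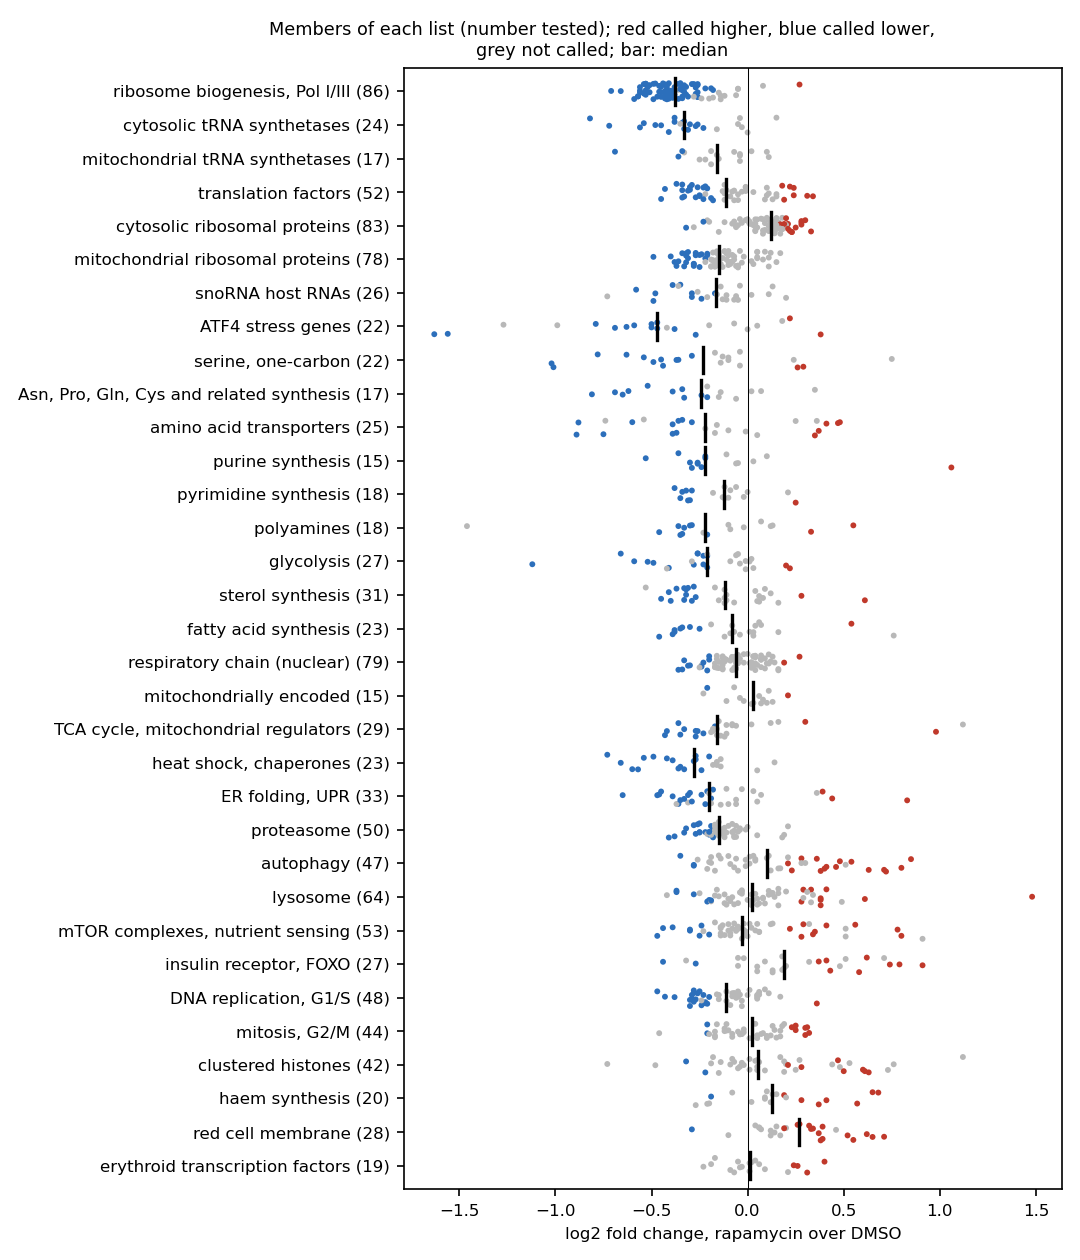
Log2 fold change, rapamycin over DMSO, of every tested member of 33 gene lists, with the number tested in parentheses and the median as a bar. Blue points (called lower) are most frequent in the list on ribosome biogenesis and outnumber red points (called higher) in those on amino acids and chaperones. Red points outnumber blue ones in the lists on autophagy, the insulin receptor and FOXO, and the red cell membrane. Grey points (not called) are the most numerous in autophagy (29 of 47) and in the insulin receptor and FOXO (17 of 27).

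The direction of these changes was looked up in the cells with the non-targeting guide, as the log2 difference of the replicate 2 pair. That pair shares no library with the 3 pairs above, and with 1 DMSO library it allows no test. Of the 3429 genes called outside the globin loci, 3260 (95.1%) had the same sign there, against 64.9% of the genes not called. The 30 largest changes named by rule all had the same sign, with a median size of 1.24 in the HBG1 pairs and 1.03 in the non-targeting pair. DDIT4 was at -1.72, SMAD6 at 0.93, ID2 at 1.44, HK2 at -0.99 and SLC7A5 at -1.09. In ribosome biogenesis all 73 called genes had the same sign, and the median of the list was -0.44. The same held for all 14 called genes of the ATF4 list, all 17 tRNA synthetases, all 16 heat shock genes and all 18 autophagy genes. In the red cell membrane list it held for 15 of 16. Called genes of at least 2-fold had the same sign less uniformly, in 171 of 196 (87.2%).

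**Figure D4:**
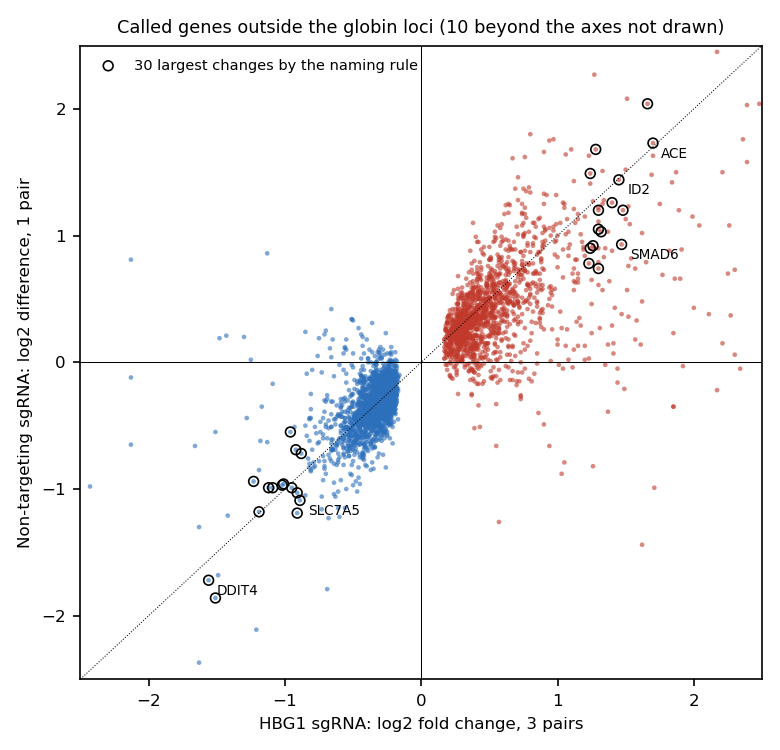
Each point is a gene called outside the globin loci, with its log2 fold change over the 3 HBG1 sgRNA pairs on the horizontal axis and its log2 difference in the single non-targeting pair on the vertical axis. Rings mark the 30 largest changes by the naming rule, all of which lie in the quadrants of equal sign, and the dotted line marks equal values (10 genes beyond the axes are not drawn).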

How the data were processed

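The authors deposited 1 table of read counts per Ensembl gene for poly-T selected RNA, not normalized. STAR 2.7.3a, featureCounts, Subread 2.0.0 and the build GRCh38 are named in the submitters' processing notes. The annotation release, strand setting and treatment of shared reads are not given in the sources used here. Symbols and positions came from GENCODE 29, which held 58039 of 58347 gene IDs.

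Genes with low counts were removed (filterByExpr, minimum count 10), libraries scaled with TMM, and rapamycin compared with DMSO in edgeR 4.0.16 (R 4.3.3; quasi-likelihood test, treatment and replicate number as terms), with Benjamini-Hochberg adjustment over all genes tested. Levels are TMM-scaled CPM, except the marker levels given as scaled to library size, which used total counts alone. SE is the log2 fold change over the root of F. The replicate numbers come from the sample titles. Deviations from the treatment means of same-numbered libraries correlated at 0.558, 0.281 and 0.233 across 11539 genes of at least 3 log2 CPM, above the limit of 0.1 set for pairing. Rapamycin replicate 2 with DMSO replicate 3 (0.264) and rapamycin replicate 3 with DMSO replicate 2 (0.202) passed it too. With replicate 1 set apart in both treatments, the limit cannot tell how replicates 2 and 3 pair.

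The comparison and the 52 gene lists were chosen with earlier results of these data known. Genes were named by rule: the 15 largest called rises and falls of at least 2 log2 CPM with 3 of 3 pairs in 1 direction, up to 3 in each direction per list, and 8 fixed genes, of which 227 resulted. A further 43 were named for their role after values were seen, as were the promoter examples and some genes printed because they were not called. Alternatives covered the replicate term, all 9 libraries, DESeq2 1.42.0, scaling, low-count filters, thinning to equal depth and leaving out each replicate.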

Additional observations from a re-analysis of the deposited data

Results flagged for a closer look

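Of the genes named by rule, 4 moved in 1 direction in all 3 HBG1 sgRNA pairs and in the other in the single non-targeting pair. The difference between the guides was not tested for any of them, and the non-targeting values have no replicate. DPF1, a BAF subunit of neurons, was at -0.66 on the log2 scale with the HBG1 guide and at 0.04 with the non-targeting guide. PFKL, a phosphofructokinase subunit, was at 0.22 and -0.01. DNAJB9, a co-chaperone of the endoplasmic reticulum, was at 0.44 and -0.03. BCL6, a transcriptional repressor, was at 0.72 and -0.15. In the non-targeting pair DPF1 had 4.40 CPM with rapamycin and 4.27 with DMSO, and BCL6 had 4.45 and 4.96 CPM. The calls of all 4 genes in the HBG1 comparison were lost without the replicate term.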

How the results depend on the processing

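The pairing moved the counts most. With no replicate block, 584 genes were called higher and 787 lower outside the globin loci, and with all 9 libraries and no replicate block 646 and 956, against 1491 and 1938 in the paired fit. DESeq2 with the block called 988 higher and 1531 lower. The replicate numbers are in the labels, but DMSO replicate 3 correlated best with rapamycin replicate 2 (0.264, against 0.233 with its own number). Leaving out 1 replicate at a time gave 719 to 1319 genes higher and 1101 to 1867 lower, the lowest without replicate 3. Under the other 5 alternatives both counts stayed within 1.5 times the main ones. Of 263 named genes that were called, 159 kept the call in all 11 alternatives and 97 lost it with no replicate block, 25 in DESeq2, and 42, 28 and 69 without replicates 1, 2 and 3. No named gene changed sign with a call, and no list median of at least 0.1 in size changed sign. At these depths 1371 of the 3429 called genes passed with and without the pairing, and small changes, as in the ribosomal protein list (15 called higher), depend on it and on the filter (32 with none).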

Other observations

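The split between rises and falls differed by the type of gene. Of 13356 protein-coding genes tested, 1159 were called higher and 1755 lower. Of 1098 lincRNA genes, 98 were called higher and 19 lower, of 1888 pseudogenes 83 and 24, and of 2213 antisense genes 104 and 75. The difference between the types was not tested. Reads of antisense genes and pseudogenes may come from overlapping or near-identical genes.

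ABTB1, which encodes an ankyrin-repeat protein and lies below the level used for naming, was looked up after its value was seen. It stood at 4.83, 4.35 and 4.34 CPM with rapamycin and at 1.52, 1.26 and 1.38 CPM with DMSO, a log2 fold change of 1.70 ± 0.27 (edgeR adjusted p = 0.000227), and at 1.63 in the non-targeting pair. COL1A2, of the fibroblast list, had 3.69, 25 and 15.7 CPM with rapamycin and 3.01, 17.1 and 9.55 CPM with DMSO, so the libraries of 1 treatment differed by more than the pairs did. Its log2 fold change of 0.55 was called with the replicate term (edgeR adjusted p = 0.00922) and not without it (0.586).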
